A study of Mus musculus with 24 samples.

Results

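The clustered histone genes of the mouse were followed through myoblast differentiation in RNA that had been selected for a poly(A) tail. Members were taken by name, as every row of the deposited gene table whose symbol begins with Hist1h, Hist2h, Hist3h or Hist4h, and no measured value entered the choice. The rule found 65 genes among the 28109 in the table. They comprise 6 H1, 16 H2A, 19 H2B, 11 H3 and 13 H4 genes. By name, 54 belong to Hist1 on chromosome 13, 7 to Hist2 on chromosome 3, 3 to Hist3 on chromosome 11 and 1, Hist4h4, is on chromosome 6. Hist1h2al starts at base 51298057 of chromosome 13, far from the other Hist1 genes, which all end by base 24026720. In the table, 62 of the 65 are labelled protein coding.

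The study asked how the Tead transcription factors act in muscle differentiation. C2C12 cells, an established myoblast line of C3H mouse origin, and primary myoblasts (PMs) from young mice of strain C57/B6 were transfected with a control siRNA (siControl, labelled siLuc) or with pools that target both Tead1 and Tead4 (siTead1/4), 24 hours before the growth medium was replaced by one low in horse serum. RNA was sequenced at that change (day 0) and at days 3 and 6 of differentiation, in biological duplicate, which gave 12 groups and 24 libraries. No group carried a transgene or a genetic deletion, every group had been transfected, silencing was transient, and whether each PM replicate pooled several mice was not given in the sources used here. Libraries held 25453830 to 52784510 counts over genes (median 39204772).

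Most clustered histone genes make the mRNAs of the replication-dependent histones, which package DNA as it is copied in S phase. Their transcripts are the well-known exception among animal mRNAs: they end not in a poly(A) tail but in a short hairpin just past the stop codon, bound by Slbp, the stem-loop binding protein. Some of these genes also give longer, polyadenylated transcripts that read past the hairpin, and such forms are known from differentiated cells. Poly(A) selection therefore favours the tailed forms over the bulk S-phase message, so that the levels below are not those of histone mRNA as a whole. How much message without a tail was carried over was not measured. In bulk RNA, fewer cells with a transcript and less transcript per cell cannot be told apart.

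The hairpins are shown first, since they are what the tailed transcripts must read past or lack. Each line gives the genomic sequence in mm9, written 5′ to 3′ on the gene's own strand, with the 16 bases of the hairpin (stem, loop, stem) in capitals and 5 flanking bases on each side. The first 2 genes gave most of the histone counts, the next 2 had large rises in differentiation, Hist1h4i was the H4 gene with the highest level, and the last 2 fell in C2C12 cells.
Hist1h1c (chr13:23831376-23831401, plus strand): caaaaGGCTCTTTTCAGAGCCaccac
Hist1h2bc (chr13:23776511-23776536, plus strand): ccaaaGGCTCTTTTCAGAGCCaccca
Hist2h3c1 (chr3:96051245-96051270, plus strand): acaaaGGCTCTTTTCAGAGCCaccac
Hist1h4h (chr13:23623322-23623347, plus strand): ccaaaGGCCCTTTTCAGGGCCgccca
Hist1h4i (chr13:22132830-22132855, minus strand): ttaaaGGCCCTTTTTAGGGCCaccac
Hist1h2bj (chr13:22135502-22135527, plus strand): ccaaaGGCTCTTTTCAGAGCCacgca
Hist1h3c (chr13:23836911-23836936, minus strand): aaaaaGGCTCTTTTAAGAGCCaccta

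A hairpin of this kind was found in 61 of the 65 genes, in 58 of them within 150 bases of an annotated stop codon. The same 16 bases, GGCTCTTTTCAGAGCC, stood in 37 genes, Hist1h1c, Hist1h2bc, Hist2h3c1 and Hist1h2bj among them. The form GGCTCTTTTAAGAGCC, as in Hist1h3c, stood in 9 genes of the H1, H2A, H2B and H3 families. The 12 H4 genes with a hairpin had other stems, 8 of them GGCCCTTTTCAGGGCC, as in Hist1h4h. No hairpin was found for Hist2h2be, Hist1h4a, Hist1h2al and Hist1h2aj, which says only that these letters were not met in the windows searched. The commonest hairpin thus stood both in members that rose in differentiation and in members that fell. Those that fell in C2C12 cells and held it were Hist1h2bj, Hist1h2ae, Hist1h2ag, Hist1h2ai and Hist1h1b.

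What differs between members is the length of the annotated gene beyond the hairpin. The Hist1h1c model ran on for 839 bases and ended at an AATAAA, the usual poly(A) signal, while the Hist1h2bc model ran on for 7826 bases, most of them intron, to another. The last 30 annotated bases of 4 such genes are given with AATAAA or its common variant ATTAAA in capitals, as the end that a tailed transcript of the model would have.
Hist1h1c (chr13:23832206-23832235, plus strand): cttctAATAAAaagcgtttagttttcattc
Hist1h2bc (chr13:23784328-23784357, plus strand): tatAATAAAtgtcatgtaaagcaaaaaaaa
Hist2h3c1 (chr3:96052403-96052432, plus strand): taatcccAATAAAaatttaacacactgcta
Hist3h2a (chr11:58770147-58770176, plus strand): gtgtctacaaaATTAAAggaagttccaatc

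In 17 of the 65 genes one of these signals lay in the last 40 annotated bases. Of the 61 genes with a hairpin, 22 had an annotated end more than 100 bases past it and 39 ended closer to it or before it, a limit set after the values were seen. Levels are given as CPM, a gene's counts scaled to library size. The 22 extended models held 93.8% of all histone counts, and 14 of them ended with a signal, against 3.16% of counts and 1 signal for the 39 short models. Most of that share came from 2 extended genes, Hist1h1c and Hist1h2bc, which alone held 82.5% of all histone counts. The split is a description with no test, and models are drawn by annotators from transcripts seen elsewhere. Per length the overlap was wide: the median level was 0.360 CPM per kb for the extended models, with a range from 0.00129 to 55.3, and 0.150 for the short ones, with a range from 0.00475 to 1.30. The short models with the highest levels per kb were Hist1h4h and Hist1h1e.

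**Figure D1:**
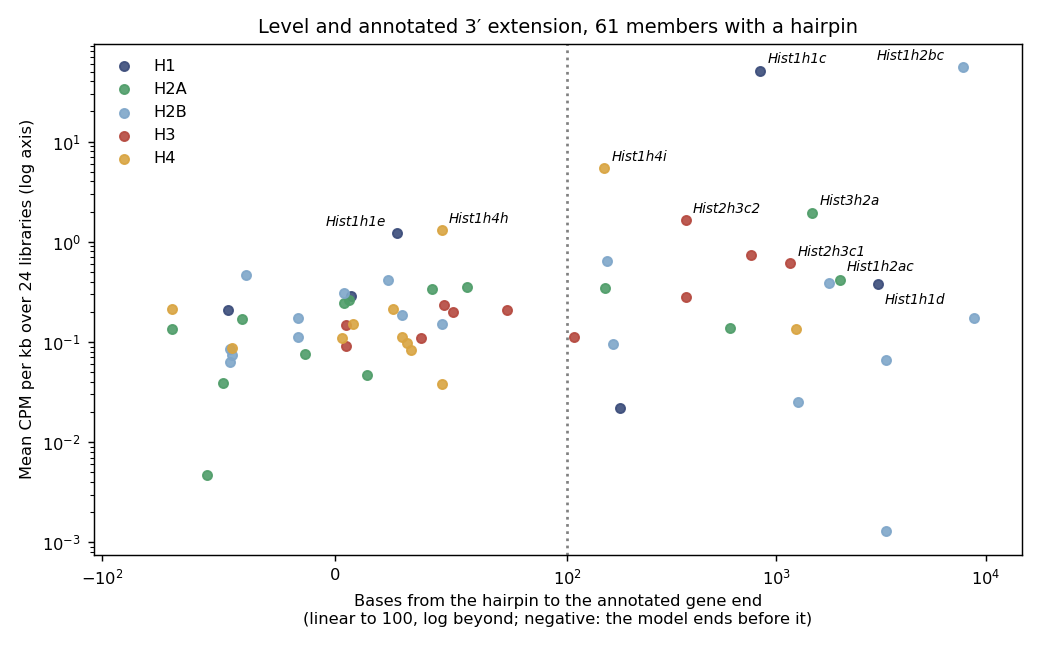
Mean level per kb over the 24 libraries (vertical, log axis) against the bases from the hairpin to the annotated gene end (horizontal, linear to 100 bases and log beyond), 1 point per gene for the 61 members with a hairpin, coloured by family. Hist1h1c and Hist1h2bc stand above 50 CPM per kb to the right of the dotted line at 100 bases, and every other member is below 6.

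Levels were very uneven. Expressed as CPM per kb of deposited gene length and averaged over the 24 libraries, the linker histone gene Hist1h1c (H1.2) reached 51.2 and the H2B gene Hist1h2bc 55.3. Their order differed by cell type, with 42.4 for Hist1h1c and 30.4 for Hist1h2bc in C2C12 cells but 60.0 and 80.1 in PMs. The next member, the H4 gene Hist1h4i, stood at 5.42, and it was followed by Hist3h2a (1.95), the H2A gene among the Hist3 members, by the H3 gene Hist2h3c2 (1.64) and by the H2B gene Hist2h2be (1.64). Together, Hist1h1c and Hist1h2bc held 82.5% of the counts of all 65 members. In all, 8 members averaged 1 CPM per kb or more, 38 lay between 0.1 and 1, and 19 were under 0.1. Only 5 members had 10 or more counts in every library, 22 had fewer than 10 in every library, and 48 were at 0 in at least 1 library.

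The leading members of the other families were lower still on this scale. Among H1 genes Hist1h1c was followed by Hist1h1e (1.23), Hist1h1d (0.378) and Hist1h1a (0.288), and among H2A genes Hist3h2a was followed by Hist1h2al (0.629), Hist1h2ac (0.417) and Hist2h2ac (0.356). The H2B genes after Hist2h2be were Hist1h2bg (0.640) and Hist1h2ba (0.469). The levels of Hist1h2al and Hist1h2ba came from C2C12 cells, where they averaged 1.25 and 0.938 CPM per kb, beside 0.00627 and 0 in PMs. In C2C12 cells Hist1h2al thus stood above Hist3h2a, at 0.758, and in PMs the H2A gene after Hist3h2a was Hist1h2ac, at 0.652. For H3 the order was Hist2h3c2, Hist1h3d (0.735), Hist2h3c1 (0.611) and Hist1h3e (0.278), and for H4 it was Hist1h4i, Hist1h4h (1.30), Hist4h4 (0.214) and Hist1h4d (0.212). The order of these means over both cell types need not hold within either, and it is uncertain where gene copies share sequence, because reads that fit several copies may be lost or split. Of the 50-base windows in the exons, 91.5% were unique in the genome for Hist1h1c and 99.2% for Hist2h2be, but 49.2% for Hist1h2bc, 42.7% for Hist2h3c1 and 35.9% for Hist2h3c2. In addition, 5 annotated histone names had no row, 4 of them without any unique window, and the Hist2h3c1 row overlaps 1 of these, Hist2h2aa1.

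The summed histone level was higher after differentiation in both cell types. In siControl C2C12 cells it was 34.7 and 38.1 CPM at day 0, 106 and 99.5 on day 3 and 218 and 159 on day 6. In siControl PMs it was 62.0 and 55.3 CPM at day 0, 265 and 271 on day 3 and 249.7 and 323 on day 6. Day 0 libraries lay below all day 3 and day 6 libraries of the same cell type and siRNA. Most of the gain came from the 2 leading genes, whose share of the sum went from 63.8 and 69.2 percent at day 0 to 92.5 and 89.0 percent at day 6 in C2C12 siControl cells. The other 63 members together gave 12.5 and 11.7 CPM at day 0, 12.6 and 12.0 CPM at day 3 and 16.4 and 17.5 CPM at day 6 in these C2C12 cells, where day 3 overlapped day 0 and day 6 lay above both. In siControl PMs they gave 15.6 and 16.8 CPM, 41.8 and 45.7 CPM and 54.7 and 50.1 CPM, with both later days above day 0.

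**Figure D2:**
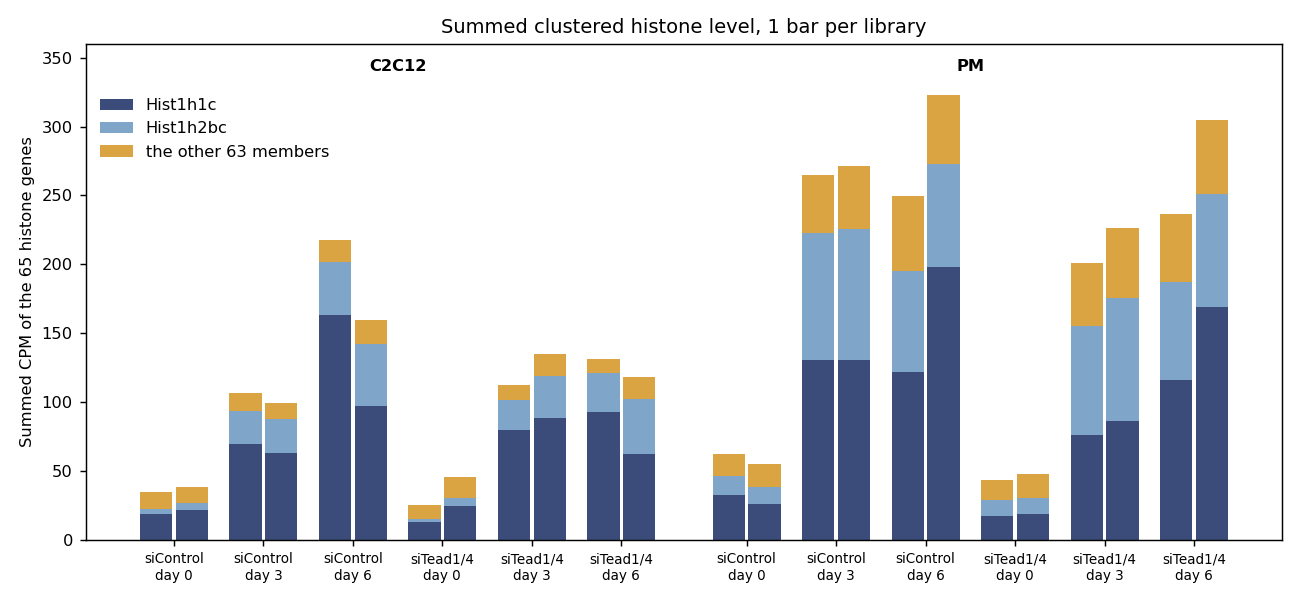
Summed CPM of the 65 histone genes (vertical), 1 bar per library, by cell type, siRNA and day, divided into Hist1h1c, Hist1h2bc and the other 63 members. PM bars at days 3 and 6 reach 200.6 to 323.2 CPM, C2C12 bars 99.5 to 217.9 CPM, and day 0 bars 25.5 to 62.0 CPM.

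Differentiation of siControl C2C12 cells split the members into a rising and a falling set. At day 3, of the 27 members with enough counts to be tested, 16 were called, with 7 up and 9 down by more than 2-fold at an adjusted p under 0.05 (edgeR's quasi-likelihood test with Benjamini-Hochberg adjustment over all genes tested, the rule for every call here), where 28.7% of all genes tested were called (2450 up and 1940 down of 15303). At day 6, 9 rose and 7 fell, and 31.1% of all genes were called (2611 up and 2150 down). Both days share the day 0 libraries. DESeq2 called 17 and 18 members. The other 38 members were not tested for want of counts. A filter on counts passes low genes through the group where they are high, so these numbers describe the tested members only.

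The H1 and H2B leaders rose in C2C12 cells. Hist1h1c stood at 18.4 and 21.6 CPM at day 0, 69.6 and 62.8 on day 3 and 164 and 97.3 on day 6. Its log2 fold change was 1.68 ± 0.35 (SE; adjusted p = 0.0036) at day 3 and 2.66 ± 0.36 (SE; adjusted p = 0.00028) at day 6, both against day 0. The 3 days did not overlap, and the day 6 libraries lay farther apart than those of the other days. Hist1h2bc stood at 3.76 and 4.77 CPM at day 0, 24.1 and 24.6 on day 3 and 38.0 and 44.5 on day 6, with log2 fold changes of 2.46 ± 0.35 (SE; adjusted p = 0.00041) and 3.23 ± 0.35 (SE; adjusted p = 8.3e-05). Every later library was above both day 0 libraries.

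The H3 genes of the Hist2 cluster rose from near absence. Hist2h3c1 stood at 0.0278 and 0.126 CPM at day 0, 2.00 and 2.06 on day 3 and 1.98 and 1.81 on day 6, a log2 fold change of 4.50 ± 0.53 (SE; adjusted p = 0.00014) at day 3 and 4.41 ± 0.53 (SE; adjusted p = 0.00014) at day 6. Hist2h3c2, most of whose windows are not unique, had 3 and 1 counts at day 0 against 63 and 64 at day 3, which as a ratio of levels was 31.9 (12.2 to 119), with a 95% interval that covers counting error only. Both lie on chromosome 3, and reads of H3 copies cannot be fully told apart.

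Among the other H2B and H2A genes, Hist2h2be was just past the fold limit at both times, with 0.695 and 1.01 CPM at day 0, 1.81 and 1.75 on day 3 and 2.00 and 1.67 on day 6 (log2 fold change 1.06 at day 6). Hist1h2al, Hist2h2bb and, at day 6 only, Hist1h2ba, the testis-type H2B gene, also rose, each staying under 1.1 CPM in every C2C12 library of siControl cells. Hist1h2ac rose at day 6 by a log2 fold change of 1.89 ± 0.47 (SE; adjusted p = 0.0084) and had a day 3 value of 0.90 that was not called. Hist3h2a stood at 0.640 and 1.01 CPM at day 0 and 2.14 and 1.65 at day 3, a log2 fold change of 1.14 that was not called by edgeR but was by DESeq2. Whether the days differ for these genes was tested by day 6 against day 3. No member was called by edgeR or DESeq2, and 0% of all genes were called. An unadjusted p under 0.05 was met by 6 of 27 members, beside 406 of the 15303 genes tested.

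The members that fell in C2C12 cells were all scarce at day 0. They were 3 H2A genes (Hist1h2ae, Hist1h2ag, Hist1h2ai), the H2B gene Hist1h2bj, the H3 genes Hist1h3c and Hist1h3e, the H4 genes Hist1h4d and Hist4h4, and the H1 gene Hist1h1b (H1.5). Hist1h2bj had 23 and 19 counts at day 0, 0 and 0 on day 3 and 3 and 1 on day 6, so that it was at least 13.9-fold lower at day 3, taking 3 counts over the group as the floor. Hist1h3c had 24 and 19 counts at day 0 and 1 and 0 at day 3, so that its level was 42.8 (7.28 to 1729.8) times as high at day 0, where the interval covers counting error only. Hist1h1b had 18 and 17 counts at day 0 and 2 and 0 at day 3, a ratio of 17.4 (4.48 to 149.5). All 9 stayed under 0.7 CPM in the siControl day 0 libraries. Of the 9, 6 end within 100 bases of the hairpin or before it and 3 are extended (Hist1h2ae, Hist1h2ai, Hist1h3e), while of the 7 that rose at day 3, 5 are extended and 2 have no hairpin that was found. Of the members tested in C2C12 cells, 5 of 16 extended ones rose and 3 fell at day 3. Of 9 short ones 0 rose and 6 fell, with 1 up and 4 down at day 6. Of all genes tested, 12.7% fell at day 3. All 9 members that fell had at most 3 counts in each siControl day 3 library. The count filter admits such members through the days where they are high, so the split cannot compare the 2 kinds. In PMs short members rose too, 4 of 8 tested at day 3 and 3 at day 6, as did 13 and 12 of 15 extended ones, and 0 of either kind fell.

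These C2C12 counts rest on few libraries. Leaving out replicate 1 of every siControl group left 5 members called at day 3 (3 up and 2 down) and leaving out replicate 2 left 3 (2 up and 1 down), while at day 6 the same left 4 (4 up and 0 down) and 7 (4 up and 3 down). The members called at day 3 whichever replicate was left out, of either siRNA, were Hist1h2bc, Hist2h3c1 and Hist1h2bj, and at day 6 they were Hist1h1c, Hist1h2bc, Hist2h3c1 and Hist2h3c2. Leaving out siTead1/4 libraries moved the siControl counts as well. Those libraries enter the shared spread, the count filter and the scaling, and the part of each was not tested.

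**Figure D3:**
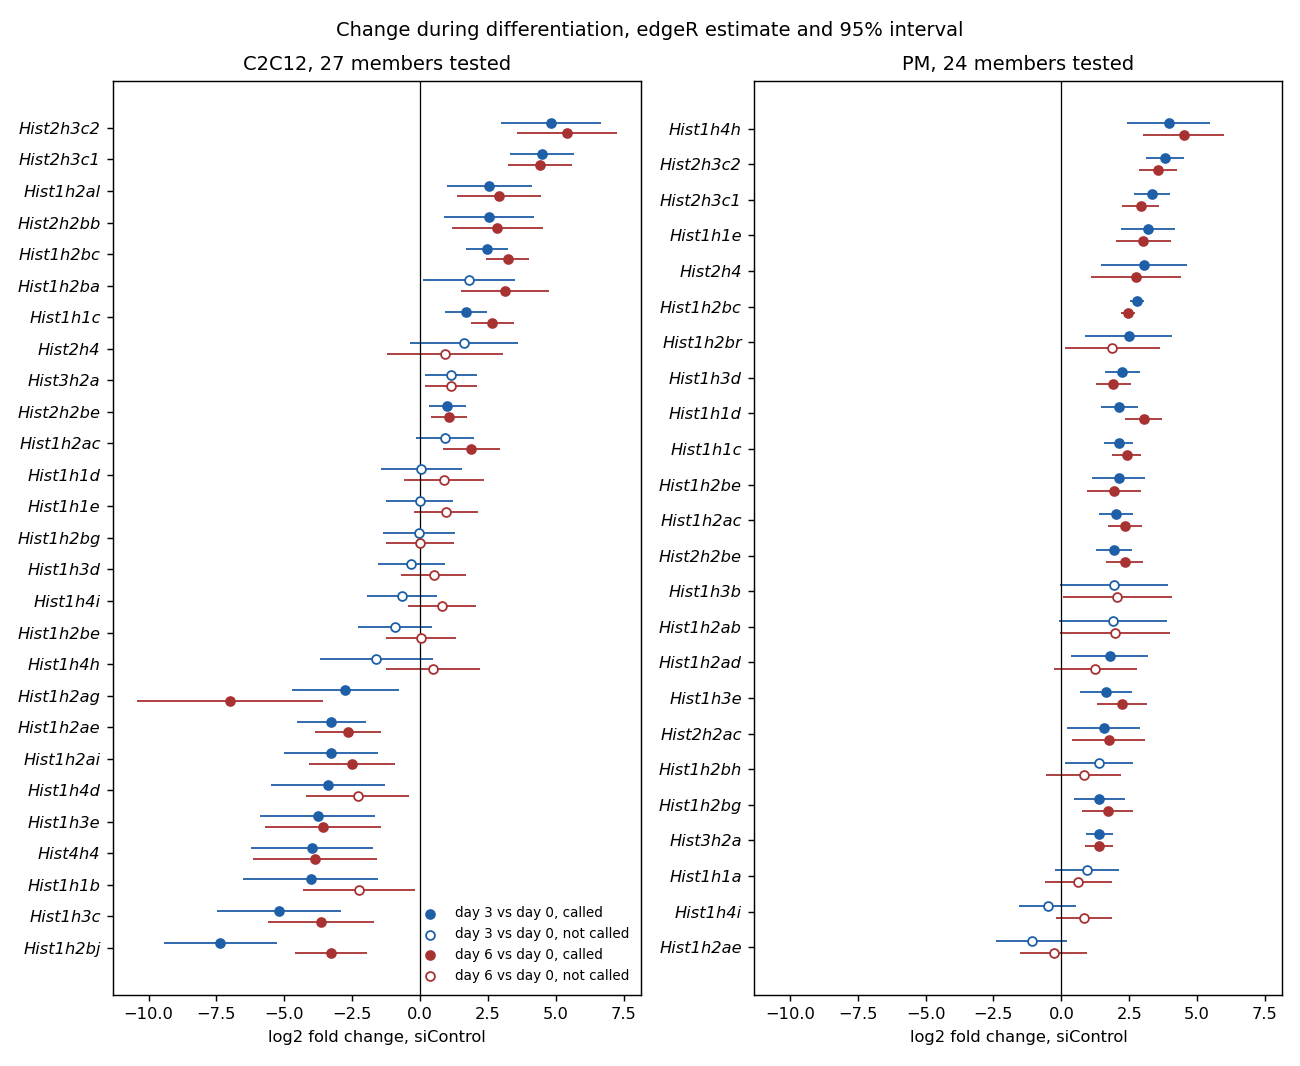
Log2 fold change (horizontal) at day 3 and day 6 against day 0 in siControl cells for each member tested, with its 95% interval, in C2C12 cells on the left and PMs on the right. Filled points were called and open points were not, and fitted values of genes at 0 to 3 counts, such as Hist1h2bj at day 3, depend on the prior count and are no bound. C2C12 members lie on both sides of 0 and every called PM member lies to the right.

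In siControl PMs every called change was a rise among the members that passed the count filter, which as above admits low genes through the days where they are high. At day 3, 18 of the 24 members tested rose and 0 fell, where 17.5% of all genes tested rose and 14.9% fell. At day 6, 16 rose and 0 fell (all genes, 20.2% and 15.3%). Where more members were tested, a few scarce ones were called down. With no filter on counts, 20 rose and 3 fell at day 3 and 19 rose and 3 fell at day 6, and in 1 fit of all 24 libraries 19 rose and 3 fell and 17 rose and 2 fell. Hist1h3c, for example, had 6 and 7 counts at day 0 and 0 and 1 at day 3. By DESeq2 the calls were 14 and 16, and 41 members were not tested. The median log2 fold change of the tested members was 1.98 at day 3 and 2.03 at day 6, beside 0.01 and 0.03 for all genes.

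Each of the families had members that rose in PMs. For H1, Hist1h1c stood at 32.5 and 26.2 CPM at day 0, 131 and 130.4 on day 3 and 122 and 198 on day 6, with log2 fold changes of 2.11 ± 0.23 (SE; adjusted p = 2.5e-05) and 2.40 ± 0.24 (SE; adjusted p = 9.5e-06). Hist1h1d (H1.3) stood at 0.670 and 0.359 CPM, 2.55 and 2.19 and 4.03 and 4.84 on the same days, a log2 fold change of 3.04 ± 0.31 (SE; adjusted p = 1.2e-05) at day 6. Hist1h1e (H1.4), whose short model ends near its hairpin, stood at 0.238 and 0.331 CPM, 1.75 and 3.598 and 2.46 and 2.31, a log2 fold change of 3.19 ± 0.45 (SE; adjusted p = 0.00014) at day 3. No day 0 library of these 3 genes overlapped a later one.

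For H2B, Hist1h2bc stood at 13.9 and 12.3 CPM at day 0, 92.3 and 94.97 on day 3 and 73.3 and 74.7 on day 6. Its log2 fold changes were 2.79 ± 0.11 (SE; adjusted p = 6.7e-08) and 2.45 ± 0.11 (SE; adjusted p = 9.1e-08), with the narrowest errors of any member in this comparison. Hist2h2be stood at 2.16 and 1.82 CPM, 7.21 and 8.63 and 8.48 and 12.2, with 1.94 and 2.33 on the log2 scale. Hist1h2be and Hist1h2bg rose at both days, and Hist1h2br at day 3 from 2 and 3 counts to 10 and 18. None of the windows of Hist1h2br is unique, so its counts may belong to a twin copy.

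For H2A, Hist3h2a stood at 2.18 and 3.01 CPM at day 0, 7.32 and 6.72 on day 3 and 7.07 and 6.96 on day 6, a log2 fold change of 1.39 ± 0.23 (SE; adjusted p = 0.00036) at day 3. Its model overlaps that of Trim17, so that reads of both genes may not be told apart. Hist1h2ac stood at 0.432 and 0.441 CPM, 1.55 and 2.09 and 2.02 and 2.63 and rose by 2.01 and 2.36 on the log2 scale. Hist2h2ac rose at both days and Hist1h2ad at day 3, each staying under 0.6 CPM.

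For H3, Hist2h3c2 stood at 0.281 and 0.193 CPM at day 0, 3.77 and 3.32 on day 3 and 2.85 and 3.11 on day 6, a log2 fold change of 3.83 ± 0.32 (SE; adjusted p = 3.3e-06) at day 3. Hist2h3c1 stood at 0.302 and 0.386 CPM, 4.36 and 2.84 and 2.50 and 2.92, a log2 fold change of 3.34 ± 0.30 (SE; adjusted p = 6.4e-06). Both thus rose in PMs as in C2C12 cells. Hist1h3d rose from 0.454 and 0.414 CPM to 1.75 and 2.52 at day 3 (log2 fold change 2.24) and Hist1h3e from 0.108 and 0.0828 CPM to 0.333 and 0.302 (1.64).

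For H4, Hist1h4h had the largest fitted change in PMs, from 6 and 0 counts at day 0 to 45 and 44 at day 3 and 65 and 43 at day 6, or 0.130 and 0 CPM, 1.25 and 1.11 CPM and 2.08 and 1.38 CPM, with a log2 fold change of 4.50 ± 0.68 (SE; adjusted p = 0.0002) at day 6. Hist2h4 rose at both days from 3 and 1 counts. Hist1h4i, the H4 gene with the highest level, was not called: it stood at 4.04 and 5.08 CPM at day 0, 3.83 and 2.82 on day 3 and 12.8 and 4.04 on day 6. The first day 6 library stood above every other siControl library, and the second lay near the lower day 0 library.

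The PM calls numbered from 12 to 20 at day 3 and from 14 to 18 at day 6 when 1 replicate of 1 siRNA was left out. The lowest day 3 count came without siControl replicate 2, with 11 members up and 1, Hist1h3c, down. There were 11 members called at day 3 whichever replicate was left out (Hist1h1c, Hist1h1d, Hist1h1e, Hist1h2ac, Hist3h2a, Hist1h2bc, Hist2h2be, Hist1h3d, Hist2h3c1, Hist2h3c2 and Hist1h4h), and the same 11 with Hist1h2be at day 6. No member was called between days 6 and 3 by edgeR or DESeq2, where 2.80% of all genes were called. An unadjusted p under 0.05 was met by 3 of 24 members, beside 3547 of the 16144 genes tested.

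**Figure D4:**
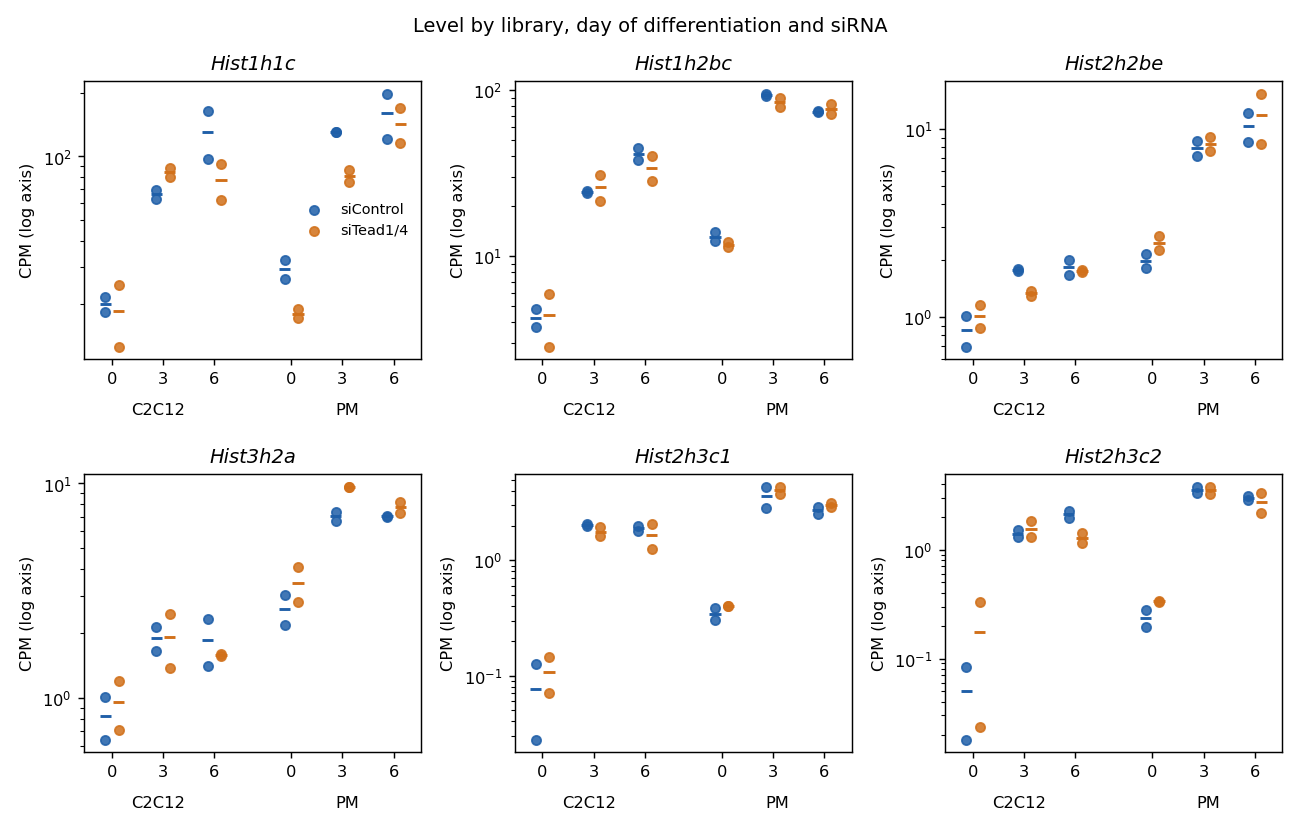
CPM (vertical, log axes that differ between panels) of 6 members in all 24 libraries, by cell type and day (horizontal) and by siRNA (colour), with 1 point per library and a dash at the mean of 2. Each of the 6 is lowest at day 0 in siControl cells of both types, and the siTead1/4 points of Hist1h1c lie below the siControl points in PMs at days 0 and 3.

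The 2 cell types were then compared directly. Of the members called up in siControl cells at day 3, 5 were shared (Hist1h1c, Hist1h2bc, Hist2h2be, Hist2h3c1 and Hist2h3c2), which is 71.4% of the 7 in C2C12 cells and 27.8% of the 18 in PMs. At day 6, Hist1h2ac joined them, making 6, or 66.7% of 9 and 37.5% of 16. The overlap of all genes was not counted, so these shares do not set the members apart. Hist1h3e fell in C2C12 cells and rose in PMs at both days. Its siControl counts were 15 and 14 at day 0 and 2 and 0 at day 3 in C2C12 cells, against 5 and 3 and 12 and 12 in PMs.

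Tested as a difference of changes, PM minus C2C12, the day 3 response differed in 12 of 36 members tested, all in the direction of PMs, where 3.79% of all genes were called in that direction and 7.44% in the other. At day 6 it differed in 5, also toward PMs (all genes, 5.27% and 7.43%). DESeq2 called 9 and 7. The count filter admits low genes through the groups where they are high, in this fit of either cell type. The counts and their direction thus describe the tested members only, and the part of the filter in them was not tested. Some of the 12 rose in PMs and were not called in C2C12 cells. Hist1h1e, for example, stood at 0.417 and 0.216 CPM at day 0 and 0.238 and 0.387 at day 3 in C2C12 cells, beside 0.238 and 0.331 and 1.75 and 3.598 in PMs, a difference of 3.22 ± 0.72 (SE; adjusted p = 0.0057) on the log2 scale. Hist1h3d and Hist1h2be were of the same kind, with differences of 2.60 and 3.05. Others, such as Hist1h2bj, Hist1h2ai and Hist1h1a, had few counts in C2C12 cells after day 0 and no called change in PMs.

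Most of these differences needed both replicates. With siControl replicate 1 left out 1 member remained at each day, and with replicate 2 left out 2 did, and without siTead1/4 replicate 1 the day 6 count was 8. Hist1h3e, of whose windows 26.6% were unique so that its reads may be mixed with those of other H3 copies, was the one called in every case, with a difference of 5.42 ± 0.99 (SE; adjusted p = 0.0012) at day 3 and 5.84 ± 0.98 (SE; adjusted p = 0.00049) at day 6. These fitted sizes depend on the prior count, since Hist1h3e had few counts in C2C12 cells after day 0. With a minimum of 10 counts in every library only 5 members could be tested, of which 0 differed at day 3 and 1, Hist2h2be, at day 6. For Hist1h1c and Hist1h2bc the difference of the day 3 changes was 0.45 (95% interval -0.47 to 1.36) and 0.35 (-0.40 to 1.09), neither called.

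Before differentiation PMs already differed from C2C12 cells in 12 of 36 members tested, with 7 higher and 5 lower in siControl PMs (16.3% and 10.5% of all genes), where DESeq2 called 8. Here too the count filter admits low genes through the groups where they are high. Higher were Hist1h2bc, Hist2h2be, Hist3h2a, Hist1h2ac, Hist1h4i, Hist2h3c1 and Hist2h3c2. Hist1h4i stood at 0.974 and 0.882 CPM in C2C12 cells and 4.04 and 5.08 in PMs, a log2 difference of 2.30 ± 0.57 (SE; adjusted p = 0.0038), and Hist3h2a at 0.640 and 1.01 and 2.18 and 3.01 CPM, a difference of 1.64 ± 0.35 (SE; adjusted p = 0.0012). Lower were Hist1h2bj, Hist1h3c, Hist1h3e, Hist1h2ba and Hist1h2al. Hist1h2ba and Hist1h2al were at 0 in all 6 siControl PM libraries and were at least 2.41-fold and 2.71-fold lower than in C2C12 cells at day 0. At day 6 C2C12 cells had 43 and 23 counts of Hist1h2ba and 51 and 18 of Hist1h2al. Without siControl replicate 1 of both cell types 2 calls remained, and without replicate 2, 3 did.

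PM libraries at day 0 also had higher levels of muscle genes than C2C12 libraries, and the part of this in the difference was not tested. Myogenin (Myog) averaged 6.26 CPM in siControl C2C12 cells and 997 in PMs at day 0, and the embryonic myosin gene Myh3 10.9 and 3953. All 8 myogenic markers were detected in both cell types, with a summed level of 992 to 18495 CPM in siControl C2C12 libraries and 9541 to 32095 CPM in siControl PM libraries. Of the 6 fibroblast markers, the sum ran from 841 to 3692 CPM in the former and from 553 to 5053 CPM in the latter. At day 3 against day 0, 5 of 6 rose in siControl C2C12 cells, where 2450 of 15303 genes did. In siControl PMs 3 of 6 rose, where 2821 of 16144 genes did. From day 3 to day 6, 5 of 6 rose in siControl PMs, where 358 of 16144 genes did, and 0 in C2C12 cells, where 0 genes were called. Lum averaged at most 1.35 CPM in any group. Schwann cell, endothelial and macrophage marker sums stayed at or under 26.9, 16.2 and 2.39 CPM, Emcn (endothelial) and Emr1 (macrophage) were at 0 in every C2C12 library, and Sox10 (Schwann cell) was at 0 in those with siTead1/4. In PMs, Sox10 and Emcn were higher in replicate 1 than in replicate 2 of every group. With siControl at day 0 they stood at 1.12 and 0.138 CPM (Sox10) and 1.75 and 0.166 CPM (Emcn). The part of such cells in the histone levels was not tested.

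Silencing of Tead1 and Tead4 was first checked on the targets. In PMs, Tead4 averaged 61.9, 194 and 166 CPM at days 0, 3 and 6 with siControl and 12.2, 33.1 and 49.5 with siTead1/4, and it was called lower on every day. Tead1 averaged 162, 281 and 226 CPM against 60.4, 89.3 and 105, and was called at days 0 and 3. In C2C12 cells Tead4 was called lower at days 0 and 3 (log2 fold changes -2.21 and -1.76), and Tead1 was called on no day. It stood at 69.6 and 114 CPM with siControl and 28.9 and 4.48 with siTead1/4 at day 0, at 96.4 and 152 against 66.8 and 51.5 at day 3 and at 76.7 and 136 against 70.3 and 77.6 at day 6, where the groups overlapped. The values for C2C12 cells below thus come from cells in which the lower Tead1 level was not called and was least marked at day 6. All Tead4 values with siTead1/4 were below those with siControl on the same day.

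No clustered histone gene was called between siTead1/4 and siControl cells on any day in either cell type. This held by edgeR, by DESeq2 and by every other alternative tried. The number with an unadjusted p under 0.05 was 0, 1 and 0 of 27 members tested at days 0, 3 and 6 in C2C12 cells. In PMs it was 1, 1 and 0 of 24. Of all genes it was 1603, 2180 and 1064 of 15303 in C2C12 cells and 3756, 3668 and 1914 of 16144 in PMs. The members thus passed this limit less often, and the part of their low counts in this was not tested. In C2C12 cells 0.438%, 1.27% and 0.0457% of all genes were called, and in PMs 2.60%, 3.30% and 0.743%. Calls were thus rare among all genes, and the counts of 0 do not set the members apart.

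The intervals give the changes that the data allow. For Hist1h2bc in PMs the log2 change on silencing was -0.18 (95% interval -0.42 to 0.06) at day 0, -0.18 (-0.40 to 0.05) at day 3 and 0.05 (-0.18 to 0.28) at day 6, all well inside a 2-fold change. In C2C12 cells the interval for the same gene at day 6 was -0.98 to 0.45, and smaller changes there were not detectable with 2 replicates. Hist1h1c came closest to a call in PMs. At day 0 it stood at 32.5 and 26.2 CPM with siControl and 17.1 and 18.9 with siTead1/4, and on day 3 the levels were 131 and 130.4 against 76.0 and 86.0.

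The groups did not overlap on those 2 days. The log2 changes were -0.73 ± 0.23 (SE; adjusted p = 0.085) at day 0 and -0.72 ± 0.22 (SE; adjusted p = 0.084) at day 3, with unadjusted p of 0.010 and 0.0093, and failed both the adjusted p and the fold limit. At day 6 the libraries overlapped, 122 and 198 CPM against 116 and 169. In C2C12 cells Hist1h1c stood at 69.6 and 62.8 CPM with siControl and 79.7 and 88.3 with siTead1/4 at day 3, in the other direction, and at 164 and 97.3 against 92.6 and 62.5 at day 6, with no call (log2 changes 0.32 and -0.74). The difference of the silencing effect between the cell types at day 3, -1.06 ± 0.43 (SE; adjusted p = 0.29) for PM minus C2C12, was not called, and neither was that of any other member on any day. The members with an unadjusted p under 0.05 numbered 0, 1 and 1 of 36 at days 0, 3 and 6. Of all 16926 genes tested, 725, 2205 and 916 were under it. DESeq2 called 0 members, and 0.00591%, 1.25% and 0.0354% of all genes were called by edgeR on those days.

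**Figure D5:**
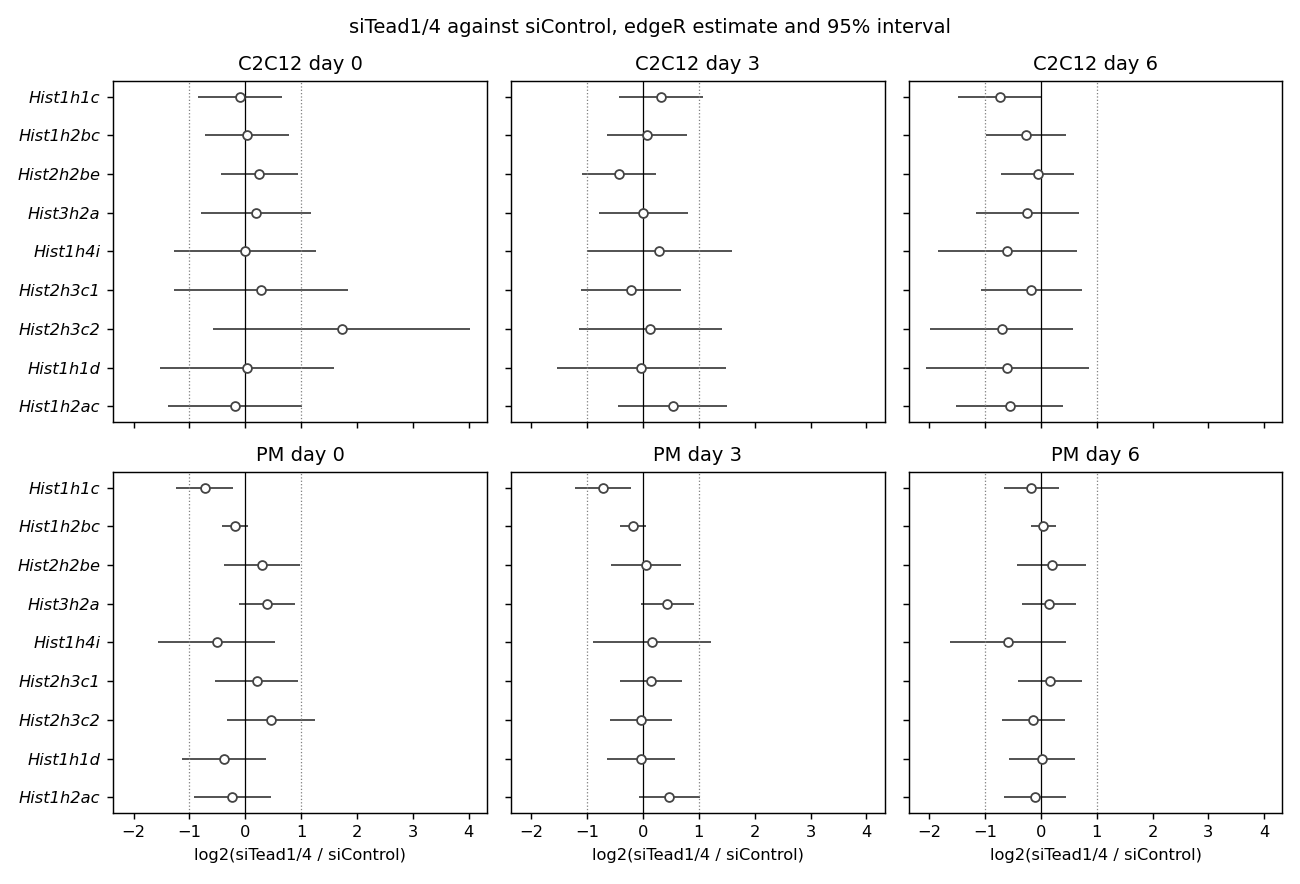
Log2 ratio of siTead1/4 to siControl (horizontal) with its 95% interval for 9 members in each cell type and day, with dotted lines at a 2-fold change. No point was called. Only Hist1h1c in PMs at days 0 and 3 has an interval that leaves out 0.

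Cells with siTead1/4 showed the change over time as well. In C2C12 cells 6 members rose and 7 fell at day 3 against day 0, where 24.6% of all genes were called in either direction, and 7 rose and 8 fell at day 6 (25.1%). In PMs 17 rose and 0 fell at each day, while of all genes 15.9% rose and 12.4% fell at day 3 and 18.2% and 13.7% at day 6. At day 3 in C2C12 cells, 5 of the 7 siControl risers and 7 of the 9 fallers were called the same way with siTead1/4. In PMs 16 of 18 risers at day 3 and 16 of 16 at day 6 were. The same overlap was not counted over all genes, so it does not set the members apart. The limit of the count filter given for siControl cells holds for these calls as well. Hist1h1c had 12.6 and 24.7 CPM at day 0, 79.7 and 88.3 on day 3 and 92.6 and 62.5 on day 6 in siTead1/4 C2C12 cells and 17.1 and 18.9, 76.0 and 86.0 and 116 and 169 CPM in siTead1/4 PMs. Without siTead1/4 replicate 2, the C2C12 calls numbered 7 at day 3 and 8 at day 6, and the PM calls 11 at day 3.

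Among genes that serve histone mRNA, every call in the differentiation of siControl cells was a fall. The mRNA of Slbp, which binds the hairpin, stood at 99.8 and 105 CPM at day 0 and 20.6 and 21.4 at day 3 in siControl C2C12 cells and averaged 57.0 and 19.4 CPM on those days in PMs, with log2 fold changes of -2.33 ± 0.26 (SE; adjusted p = 9.4e-05) and -1.60 ± 0.11 (SE; adjusted p = 1.1e-06). Npat, the coactivator of histone transcription at the G1/S transition, averaged 49.5 and 26.5 CPM in C2C12 cells and 46.5 and 25.2 in PMs and just missed the fold limit at day 3. Of 19 genes of histone mRNA processing and transcription tested, 6 fell and 0 rose at day 3 in C2C12 cells and likewise 6 and 0 in PMs, where of all genes 12.7% fell in C2C12 cells (28.7% were called in either direction) and 14.9% in PMs. The fallers included in both Casp8ap2, Eri1, the exonuclease that trims histone mRNA ends, Srrt and the cleavage factor gene Cstf2. The median of the list was -0.76 and -0.74 on the log2 scale, beside -0.01 and 0.01 for all genes.

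DNA replication genes fell almost throughout. At day 3, 27 of 27 fell in C2C12 cells and 26 of 27 in PMs, beside the same shares of all genes, with medians of -2.91 and -3.01. Pcna, the replication clamp, averaged 293 CPM on day 0 but 68.3 CPM on day 3 in C2C12 cells, beside 193 and 40.1 CPM in PMs. Rrm2, the small subunit of ribonucleotide reductase, averaged 729 and 149 CPM in C2C12 cells and 748 and 48.3 CPM in PMs. Members of the clusters that rose thus did so in libraries in which replication genes fell. The scarce members that fell in C2C12 cells went in the same direction as these genes.

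The genes listed as replication-independent histones, which the naming rule left out, did not share the rise. Of 11 tested, 6 fell and 0 rose at day 3 in each cell type, where 12.7% and 14.9% of all genes fell, with medians of -1.11 in C2C12 cells and -1.60 in PMs. H2afz, which encodes H2A.Z, stood at 204 and 173 CPM at day 0 and 48.6 and 40.7 at day 3 in C2C12 cells and at 170.4 and 162 and 32.0 and 34.4 in PMs. H3f3b, which encodes H3.3, fell in both (log2 fold changes -1.11 and -1.91), whereas H3f3a, which encodes the same protein, had 0.53 and -0.11 and was not called. Of 19 histone chaperone genes 11 fell in C2C12 cells and 10 in PMs and 0 rose, beside the same shares, Nap1l1 among the fallers with -1.34 and -1.81, while Rbbp4 had -0.01 and -0.58 and was not called. None of these 4 lists held a gene called between siTead1/4 and siControl on any day by edgeR, as with the clustered genes. Below the fold limit, 4 of 27 DNA replication genes and 7 of 19 chaperone genes had an adjusted p under 0.05 by edgeR in PMs at day 0, all lower with siTead1/4. Of the processing and transcription genes 0 of 19 did, and of the replication-independent histone genes 1 of 11. The share of all genes under this limit was not counted, so these numbers do not set the lists apart. Rrm2 was among the 4 replication genes, with a log2 change of -0.92 ± 0.15 (SE; adjusted p = 0.006). The median of the replication list was -0.46 in PMs at day 0, at the time when Hist1h1c was also lower with siTead1/4 but not called. The part of one in the other was not tested. At days 3 and 6 the list median on silencing was 0.10 and 0.01 in PMs. In C2C12 cells it was -0.14, -0.36 and 0.51 at days 0, 3 and 6, so the direction was not the same throughout.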

How the data were processed

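RNA selected on poly-T beads was made into unstranded libraries. Per the submitters' processing notes, CASAVA 1.8.2, TopHat2 2.0.10, Bowtie2 2.1.0, HTSeq 0.6.1 and DESeq2 1.8.1 were used with mm9, and the read length is not given in the sources used here. The authors deposited 1 table of raw read counts per gene, with gene lengths and with normalized values that were not used. Another 36 columns, of 12 libraries outside the 24, were not used.

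Counts were tested with edgeR 4.0.16 (quasi-likelihood test, TMM, filterByExpr) in R 4.3.3, in 1 fit of 12 libraries per cell type and 1 of all 24 between cell types. Genes were called at an adjusted p (Benjamini-Hochberg) under 0.05 where they also changed by more than 2-fold. CPM were scaled by TMM over the 24 libraries. Groups at 0 had a floor of 3 counts over both libraries. Intervals of count ratios are exact and cover counting error only. Alternatives were DESeq2 1.42.0, median-ratio (RLE) size factors, other count filters, other sets of libraries and a replicate block. The code was tested on simulated data.

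Hairpins were searched in mm9 on the gene's strand, and uniqueness was the share of 50-base exon windows found once in the genome, a length that is an assumption. The members and lists were chosen with earlier results of these data known. Genes named were, per family, the 4 with the highest level per kb, the 3 largest called rises and falls of each siControl or silencing comparison, all called differences between cell types, and from each other list the 2 highest with Slbp, Npat, H2afz, H3f3b and Pcna. Other names were chosen after their values were seen.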

Additional observations from a re-analysis of the deposited data

Results flagged for a closer look

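The following log2 differences of the siControl change, PM minus C2C12, were significant in an interaction test across all genes (edgeR, adjusted over all genes tested), and each was above 0. At day 3 they were 3.05 for Hist1h2be, 4.55 for Hist1h1a, 3.22 for Hist1h1e, 5.58 for Hist1h4h, 5.09 for Hist1h2ab, 2.60 for Hist1h3d, 4.40 for Hist1h2bh, 6.30 for Hist2h2ac, 4.43 for Hist1h3b, 5.42 for Hist1h3e, 7.69 for Hist1h2bj and 3.04 for Hist1h2ai, with adjusted p from 0.00033 for Hist1h2bj to 0.036 for Hist1h2ai. At day 6 they were 3.55 for Hist1h1a, 4.04 for Hist1h4h, 1.30 for Hist2h2be, 5.84 for Hist1h3e and 3.92 for Hist1h2bj, with adjusted p from 0.00049 for Hist1h3e to 0.042 for Hist2h2be.

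Several of these rest on very few counts in C2C12 cells at day 3, and their fitted sizes depend on the prior count and are no bound. Hist2h2ac had 0 and 0 counts there, Hist1h2bj 0 and 0, and Hist1h2ab, Hist1h3b, Hist1h2bh and Hist1h1a 1 count in each library. In PMs the same day gave Hist2h2ac 15 and 16 counts, Hist1h2ab 6 and 9 and Hist1h3b 12 and 10. Members with more counts on both sides were Hist1h3d, with 17 and 11 counts in C2C12 cells and 63 and 100 in PMs at day 3, and Hist2h2be at day 6. The difference held without either siControl replicate only for Hist1h3e. That gene too had few counts in siControl C2C12 cells, 2 and 0 at day 3 and 0 and 2 at day 6, so the same limit holds for its fitted sizes.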

How the results depend on the processing

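No value changed direction. No member was called between siTead1/4 and siControl under any alternative. Counts of called histone genes moved by over 1.5 times with the count filter and with the replicates left out. Without the filter, siControl C2C12 cells had 29 calls at day 3 (9 up and 20 down) and 25 at day 6 (11 up and 14 down), and PMs 1 between days 6 and 3. With at least 10 counts in every library, where 5 members were tested in C2C12 cells and 10 in PMs, siControl C2C12 cells had 4 calls on each later day, siTead1/4 C2C12 cells 2, and each of the 4 PM comparisons with day 0 had 9. The difference between cell types then had 0 calls at day 3 and 1 at day 6, and PMs against C2C12 cells at day 0 had 4. A single fit of all 24 libraries gave 25 in siControl C2C12 cells at day 3. A fit of only the groups compared gave 9 in siTead1/4 C2C12 cells at day 6. Beyond the number of genes tested, the cause was not tested. With RLE size factors the summed level of siControl PMs at day 3 was 273.4 CPM.

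With 1 replicate of 1 siRNA left out, calls in siControl C2C12 cells ran from 3 to 27 at day 3 and from 4 to 25 at day 6, from 7 to 13 and from 8 to 14 with siTead1/4, from 12 to 20 and from 14 to 18 in siControl PMs, and from 11 to 18 and from 14 to 19 with siTead1/4. They ran from 1 to 12 at day 3 and from 1 to 8 at day 6 for the difference between cell types, from 2 to 11 for PMs against C2C12 cells at day 0, and stayed at 0 for day 6 against day 3 and for silencing. Of 87 single-gene results, 39 fell short of the call without siControl replicate 1 and 38 without replicate 2. In these fits the lone library is assumed to vary like the other groups.

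Same-numbered libraries did not deviate together in every pair in C2C12 cells, where 7 of 15 correlations were above 0.1 (range -0.30 to 0.62). In PMs 14 of 15 were, with a range of 0.085 to 0.70 and a median of 0.27. Libraries of the same number were thus alike to a degree in PMs. Whether the numbers mark a shared culture is not given, and the main fits did not pair them. A replicate block gave siControl C2C12 cells 15 calls at day 3 and 16 at day 6, PMs 18 and 17, 13 and 7 for the difference between cell types and 9 for day 0, and moved no count by over 1.5 times. Depth limits most members, 22 of which had fewer than 10 counts in every library.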
